A study of Mus musculus with 24 samples.

Results

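The tissue below the coronary tie was compared with the tissue above it in wild-type mouse hearts after ischemia-reperfusion (I/R) injury. The members were the 6 arrays titled as wild-type I/R, 3 of tissue below the tie and 3 of tissue above it, out of 24 arrays in the series. The other 18 arrays held wild-type sham hearts and hearts of MuRF1 Tg+ mice, sham and I/R, in the same 2 pieces, with 3 arrays in each of 8 groups. Total RNA of each piece (50 ng, Cy5) was hybridised to a two-colour Agilent array beside a Cy3-labelled pool of whole C57BL/6 pups of postnatal day 1, which was the common reference on every array. Every value below is a log2 ratio of heart over that pool, and every difference is below minus above.

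All mice were 12 to 16 weeks old. The wild-type groups carried both normal copies of MuRF1 (MuRF1+/+), and the genotypes were described as strain-matched, while the strain of the adult mice was given in none of the sources used here. In I/R surgery the left anterior descending (LAD) artery was tied and later released, and sham pieces carry the same above and below labels, by the tie's site. The time to harvest and the promoter that drives the MuRF1 transgene were also not given. Each heart gave 2 pieces, but no label ties an array's number to a heart, so the pieces were compared as separate arrays. The labels call the 3 arrays of a group biological replicates, and nothing else tells whether they came from separate hearts. A p-value thus measures the spread among arrays, and in the main fit this spread was pooled over the 12 I/R arrays of both genotypes. Having only 3 arrays a group limits how precisely a difference can be known.

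The LAD supplies the front wall and apex of the left ventricle, so a tie leaves the muscle beyond it without blood until it is released, while the base of the heart keeps its flow. Muscle cells next to injured tissue are known to switch on stretch and repair genes such as the natriuretic peptides and the Xin proteins, and stressed muscle makes heat shock proteins that hold unfolded proteins. The base also borders the atria, the great vessels and the valves, which hold other muscle and matrix cells than the ventricle wall.

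The heart signal was uneven among these 6 arrays. Cy5 spots well above background made up 24.2%, 15.7% and 37.8% of all spots on above replicates 1 to 3, and 9.90%, 38.3% and 37.9% on below replicates 1 to 3. Above replicates 1 and 2 and below replicate 1 thus lay under 25%, as did 2 of the Tg+ I/R below arrays and none of the sham arrays. The group means were 25.9% ± 11.2 (SD, n = 3) above and 28.7% ± 16.3 (SD, n = 3) below. The dimmest arrays, below replicate 1 and above replicate 2, resembled each other (Pearson correlation across features 0.93), and below replicate 1 correlated at only 0.69 and 0.68 with the other below arrays, which correlated at 0.98 with each other. The median within-group SD of a feature was 0.17 above and 0.22 below, against 0.10 in both wild-type sham groups. In the Tg+ I/R groups, which share in the standard errors of the main fit, it was 0.12 above and 0.16 below. The markers of ventricular muscle cells averaged a log2 ratio of 1.16 to 2.28 on the 6 arrays, so all 6 held RNA of heart ventricle. The leading results are given with and without the weak arrays.

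**Figure D1:**
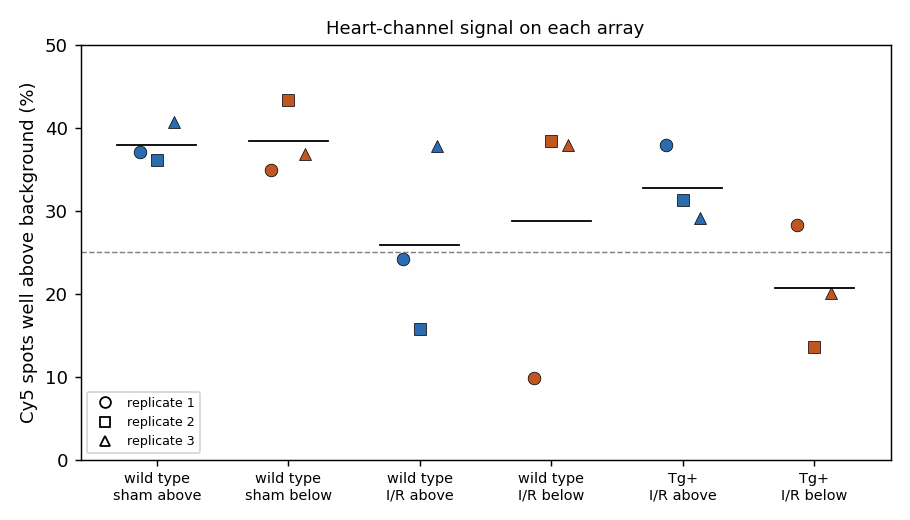
Share of Cy5 (heart) spots well above background on each array, in percent, for the wild-type and Tg+ groups compared here; symbols are replicates 1 to 3, lines are group means and the dashed line marks 25%. Wild-type I/R above replicates 1 and 2 and below replicate 1 lie under the line, at 24.2%, 15.7% and 9.90%.

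Trim63, which encodes the muscle ubiquitin ligase MuRF1 that the transgene carries, had the log2 ratios 1.49, 1.49 and 1.94 above and 0.41, 2.23 and 2.33 below. The below arrays held both the lowest and the highest values, so the groups overlapped. The difference was 0.01 ± 0.51 (SE; 95% interval -1.12 to 1.15). The lowest value was that of below replicate 1, the dimmest array, and without it the difference was 0.64 ± 0.39. Without all weak arrays, which leaves 1 above array, it was 0.34. Over the alternatives in processing and arrays it ran from -0.32 to 0.70, so its direction is not settled. In wild-type sham hearts the difference was 0.01 ± 0.10, with all 6 arrays between 2.24 and 2.55. Whether the Trim63 probes lie in the part of the gene that the transgene carries was not given.

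No feature passed the threshold between tissue below and above the tie. Of 11386 features, 0 (0%) had a Benjamini-Hochberg adjusted p under 0.05 in limma, fitted to the 12 I/R arrays, and the lowest adjusted p was 1.00. At an unadjusted p under 0.05 there were 264 (2.32%), of which 150 (1.32%) were higher above and 114 (1%) higher below. A limma fit of only the 6 wild-type I/R arrays gave 118. All 3 below arrays lay over all 3 above arrays for 281 features (2.47%) and under them for 293 (2.57%). The median difference was -0.014, and 5228 features (45.9%) were positive. The median standard error was 0.15 and the median 95% interval, which is not adjusted for the number of features, reached 0.34 to either side. Passing the adjusted threshold takes more than that: even Mgp, at -1.44 ± 0.28, did not pass. The values below are therefore levels and differences with their errors, and none is a called change unless a call is stated.

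The large differences were on 1 side. A difference of at least 1, a factor of 2 in the ratio, was seen for 12 features, and in all 12 the tissue above the tie was higher. Those described here are Myl7, Sln, Myl4, Mybphl, Mgp, Mlana, Ccl19, Myl9, Msln, Nppa and Stard10. This size cut, and with it Mybphl, Mlana, Ccl19 and Stard10, was chosen after the values were seen. In 4 of the 12 the groups did not overlap. The largest positive difference was 0.98, of Xirp2. Without the weak-signal arrays, which leaves 1 above and 2 below arrays, 139 features (1.22%) passed, 133 (1.17%) higher above and 6 (0.0527%) higher below, with the lone above array assumed to vary like the other groups.

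**Figure D2:**
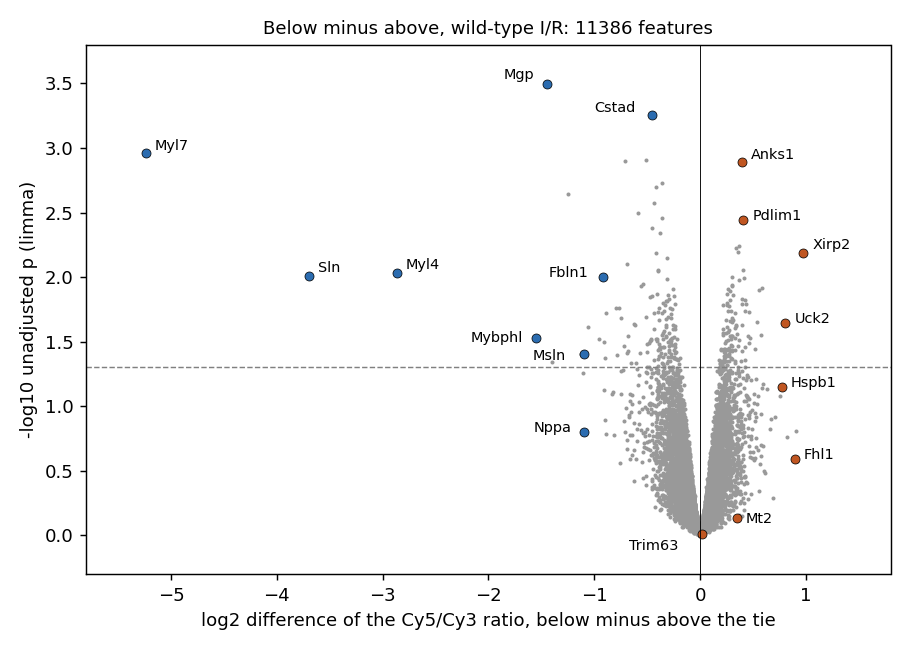
Log2 difference below minus above (x axis) against -log10 of the unadjusted limma p (y axis) for the 11386 features of the wild-type I/R comparison; coloured points are genes named in the text, and the dashed line is an unadjusted p of 0.05. The points far from 0 lie on the left, higher above the tie, led by Myl7 at -5.24, and none passed after adjustment.

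The largest differences were those of atrial muscle genes, toward tissue above the tie. Myl7, the regulatory light chain of atrial myosin, read 4.90, 0.26 and 6.23 above and -0.41, -1.72 and -2.20 below. The groups did not overlap, but above replicate 2 lay nearer to the below arrays than to its own group. The difference was -5.24 ± 1.18 (limma unadjusted p 0.0011, adjusted 1.00), and without above replicate 2 it was -7.00 with a limma adjusted p of 0.0026, the only call made when 1 of the 6 arrays was left out. Without the weak arrays Myl7, Myl4 and Sln were at -8.19, -5.67 and -7.19. Only above replicate 3 was left on its side there, so the spread among above arrays is unknown in that fit. Myl4, the matching essential light chain, read 0.65, -1.70 and 2.89 above and -1.21, -2.94 and -2.62 below. Its groups overlapped through above replicate 2, and the difference was -2.87 ± 0.90. Sln, sarcolipin, which restrains the calcium pump of atrial muscle, read 0.16, -2.33 and 2.77 above and -1.64, -4.80 and -4.04 below. It overlapped in the same way, at -3.69 ± 1.18. The errors of these 3 genes are pooled with Tg+ arrays that varied less. The wild-type SDs above and below were 3.13 and 0.93 for Myl7, 2.29 and 0.92 for Myl4, and 2.55 and 1.65 for Sln. In Tg+ hearts they were 0.40 and 0.48, 0.23 and 0.54, and 0.73 and 1.11. The errors thus understate the spread among the wild-type arrays.

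Nppa, atrial natriuretic peptide, which is also a stress gene of the ventricle, read 4.04, 1.43 and 4.65 above and 1.26, 2.77 and 2.79 below. The low arrays were above replicate 2 and below replicate 1, both weak, and the difference of -1.10 ± 0.72 had a 95% interval from -2.70 to 0.50. Mybphl, a myosin-binding protein of atria and conduction tissue, read 1.28, 0.06 and 3.25 above and was not well above background on any below array. By the mean above against the dimmest signal that counts as above background below, it was 2.73-fold higher above. That value leaves out the spread among arrays and is no lower bound of the difference. Mybphl was measured above background on only 2 of 3 above arrays and the mean rests on above replicate 3. The difference was -1.55 ± 0.62 (95% interval -2.92 to -0.18), and -0.69 without above replicate 3. Stard10, a lipid transfer protein, read 0.16, -0.24 and 1.47 above and 0.07, -1.04 and -0.83 below, with a difference of -1.06 ± 0.40. Dkk3, a secreted protein of the Dickkopf family, was also under background on all below arrays and 1.79-fold higher above by the same measure of means. It was above background on only 1 above array, replicate 3.

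Of 15 atrial genes on the list, 12 were measured. Of these, 0 passed, 5 had an unadjusted p under 0.05 and all of those were higher above, where 1.32% of all features were. That count rests on the same pooled errors. In 1 of 12, Myl7, the groups did not overlap with above higher, where 2.57% of all features did so. In all, 11 of 12 differences were negative, with a median of -0.75 against -0.014 over all features. The mean log2 ratio over the 12 genes was 0.87, -0.21 and 2.24 above and -0.17, -0.58 and -0.51 below, so 2 of the 3 above arrays stood over the rest and above replicate 3 was highest. The list median ran from -1.03 to -0.36 as each of the 6 arrays was left out, with the smallest size without above replicate 3, and was -1.82 without the weak arrays. With slide as a block over all 24 arrays it was -0.29. In bulk tissue a smaller share of atrial muscle in a piece and less of these RNAs per cell cannot be told apart. Ventricular markers had a median of 0.00 over 8 genes, 4 positive and 4 negative, but of 0.41 with 7 of 8 positive without below replicate 1, 0.48 without the weak arrays and -0.37 with slide as a block.

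Of these atrial genes 3 were picked by hand, leaving out Sln and Myl4, which differed more than Nppa and Mybphl. The promoter sequences of Myl7, Nppa and Mybphl are shown. Each is the 250 bases before the start site in RefSeq (GRCm38.p6), read 5′ to 3′ on the gene's own strand. The capitals mark matches, on either strand, to GATAA (the core bound by GATA factors), to the CArG box of serum response factor, to the MEF2 box or to TATAAA.
Myl7, chr11:5898783-5899032, - strand: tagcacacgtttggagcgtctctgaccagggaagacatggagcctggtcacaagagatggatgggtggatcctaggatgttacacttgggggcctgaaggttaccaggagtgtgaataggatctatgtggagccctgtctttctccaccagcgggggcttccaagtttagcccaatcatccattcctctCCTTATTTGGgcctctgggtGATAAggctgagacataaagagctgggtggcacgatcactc
Nppa, chr4:148000472-148000721, + strand: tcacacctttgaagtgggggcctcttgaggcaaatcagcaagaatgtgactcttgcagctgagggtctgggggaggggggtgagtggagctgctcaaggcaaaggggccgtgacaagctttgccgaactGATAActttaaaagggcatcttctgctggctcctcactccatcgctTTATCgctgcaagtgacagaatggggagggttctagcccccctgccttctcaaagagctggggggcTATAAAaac
Mybphl, chr3:108364661-108364910, + strand: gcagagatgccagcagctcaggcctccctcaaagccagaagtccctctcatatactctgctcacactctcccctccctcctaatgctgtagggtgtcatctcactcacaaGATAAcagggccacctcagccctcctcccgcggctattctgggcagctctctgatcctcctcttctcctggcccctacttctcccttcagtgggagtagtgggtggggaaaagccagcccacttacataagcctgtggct
GATAA was found once in the Myl7 window, at 41 to 37 bases before the start, 2 times in the Nppa window and once in the Mybphl window. It is also in 22.6% of 32851 promoter windows of this length. The Myl7 window held a CArG box, 61 to 52 bases before the start, which 1.47% of windows hold. The Nppa window held TATAAA, which 12.4% of windows hold. These are matches of letters, not sites shown to be bound. Of the 151 genes named by rule or by size, 109 had a promoter in the table.

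The same atrial genes were read in the Tg+ I/R arrays, which share the fit and its pooled error with the wild-type arrays, and in wild-type sham hearts. In Tg+ hearts the difference for Myl7 was -5.98 ± 1.18, for Myl4 -3.19 ± 0.90 and for Sln -2.77 ± 1.18. Nppa and Stard10 were at -0.26 ± 0.725 and -0.25 ± 0.40 there, with overlapping groups. In 7 of the 12 list genes the Tg+ groups did not overlap with above higher, where 11% of all features did so. In 1 they did not overlap with below higher, where 12.1% of all features did so. In sham hearts Myl7 stood at -1.85 ± 1.40 and the list median at -0.14, with the mean over the list between -0.51 and 0.38 above and between -0.55 and -0.42 below. The I/R difference minus the sham difference was -3.39 ± 2.08 for Myl7 (adjusted p 1 in limma), and the wild-type difference minus the Tg+ difference was 0.74 ± 1.67 (adjusted p 0.84), so neither was resolved.

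Several genes of connective tissue were also higher above the tie. Mgp, matrix Gla protein, which keeps vessel walls and cartilage from calcifying, read 1.39, 1.66 and 2.10 above and 0.88, -0.12 and 0.06 below. The groups stood apart by 0.51, and Mgp had the lowest p of all features, with a difference of -1.44 ± 0.28 (95% interval -2.06 to -0.83, limma unadjusted p 0.000322, adjusted 1.00). In the limma fit of all 24 arrays, where 2 features (0.0176%) passed, its adjusted p was 0.048. With slide as a block over the same arrays the difference was -0.95 ± 0.36 (adjusted p 1). Without the weak arrays, which leaves only above replicate 3 on its side, the difference was -2.13. Fbln1, fibulin 1 of elastic matrix, read 0.81, 0.10 and 1.48 above and 0.01, -0.16 and -0.22 below. The groups did not overlap, at -0.92 ± 0.29.

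Of 16 fibroblast markers 15 were measured and 0 passed. In 2, Fbln1 and Dpep1 (a membrane dipeptidase), the groups did not overlap with above higher, where 2.57% of all features did so. Both had an unadjusted p under 0.05, where 1.32% of all features did so with above higher. Lum, lumican, and Dcn, decorin, which space collagen fibres, were at -0.83 ± 0.42 and -0.65 ± 0.44 with overlapping groups. The collagen chains Col1a1 and Col1a2 were at -0.10 ± 0.89 and 0.15 ± 0.80. In all, 14 of 15 markers were negative, with a median of -0.31, where 54.1% of all features were negative. The mean log2 ratio over the list was -1.10, -0.83 and -0.82 above and -0.48, -1.79 and -1.62 below: below replicate 1 was the highest of all and the other below arrays the lowest. Without below replicate 1 the median was -0.78 and 15 of 15 were negative, and with slide as a block it was -0.09. The sham median was -0.04 and the Tg+ median -0.01, while Fbln1 in Tg+ hearts was at -1.35 ± 0.29 and Mgp at -1.53 ± 0.28.

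**Figure D3:**
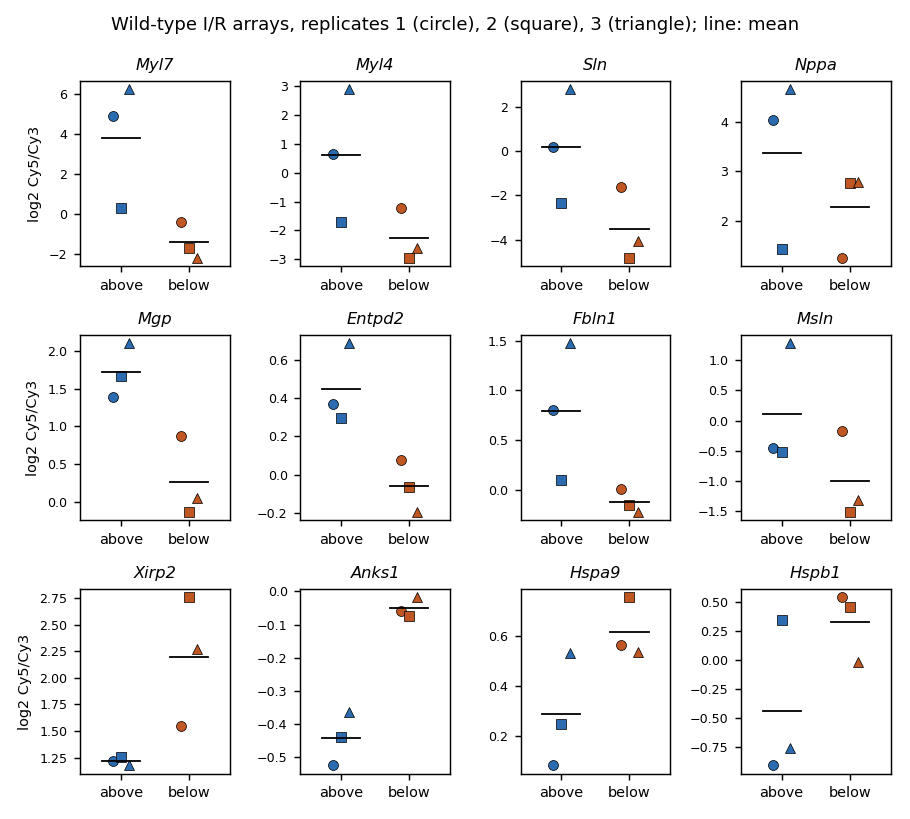
Log2 Cy5/Cy3 ratio (y axis, own scale in each panel) of 12 genes on the 3 above and 3 below arrays of wild-type I/R hearts; circles, squares and triangles are replicates 1, 2 and 3 and lines are means. Myl7, Mgp, Entpd2 and Fbln1 lie higher above on all 3 arrays, and Xirp2, Anks1 and Hspa9 higher below, while Myl4, Sln, Nppa, Msln and Hspb1 overlap.

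Markers of the heart's surface layer were lower on below replicates 2 and 3 than on above replicate 3, the only above array with full signal. Msln, mesothelin of the mesothelial sheet, read -0.46, -0.51 and 1.27 above and -0.17, -1.50 and -1.32 below, at -1.10 ± 0.47. The keratins of that layer, Krt18 and Krt19, were at -0.71 ± 0.43 and -0.65 ± 0.38. All 6 measured members of 11 were negative, where 54.1% of all features were, with a median of -0.55, and 0 passed. Below replicate 1 was the highest of the below arrays, with a list mean of -0.43 against -1.45 and -1.34. Above replicate 3 was the highest of all at 0.01, against -0.94 and -0.71 on above replicates 1 and 2. Without below replicate 1 the median was -1.12, without the weak arrays -1.51 and with slide as a block -0.30. In sham hearts it was 0.03 and in Tg+ hearts 0.19.

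Smooth muscle genes differed in both directions. Myl9, the smooth muscle myosin regulatory light chain, read -2.06, -2.01 and -0.41 above and -1.75, -3.18 and -2.86 below, at -1.10 ± 0.51. Lmod1, leiomodin 1, did not overlap but differed by only -0.51 ± 0.24. Acta2, smooth muscle actin, did not overlap in the other direction, at 0.42 ± 0.17, but its 3 probes ran from -0.34 to 0.42 and their mean was -0.04, so its direction depends on the probe. Of 9 measured members of 10, 0 passed, 4 were positive and 5 negative, with a median of -0.18. In 2, Acta2 among them, the groups did not overlap with below higher, where 2.47% of all features did so. In 1, Lmod1, they did not overlap with above higher, where 2.57% of all features did so. The median was -0.505 with 7 of 9 negative without below replicate 1, -0.59 without the weak arrays and 0.16 with slide as a block.

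Macrophage markers leaned to tissue above the tie by small amounts. All 20 measured members of 23 were negative, where 54.1% of all features were, with a median of -0.21. No member passed or had an unadjusted p under 0.05. In 1, Cd68 (a lysosomal protein of macrophages), at -0.09 ± 0.07, the groups did not overlap with above higher, where 2.57% of all features did so. Lyz2, lysozyme of macrophages and neutrophils, was at -0.55 ± 0.47, and Lyve1 and Cd163, receptors of resident heart macrophages, were at -0.41 ± 0.24 and -0.41 ± 0.33. Without below replicate 1 the median was -0.19, with 14 of 20 negative, and without above replicate 3 it was -0.04, so above replicate 3 carried most of the lean. In sham hearts it was 0.01 and in Tg+ hearts -0.09. Ccl19, the chemokine that draws cells with Ccr7 to lymphoid tissue, read 1.50, 0.45 and 3.00 above and 0.22, 0.63 and 0.73 below, at -1.12 ± 0.48. Mlana, a melanosome protein of pigment cells, read 0.54, 0.03 and 3.18 above and -0.09, -0.24 and -0.10 below, at -1.40 ± 0.62. Above replicate 3 carried the highest value of Ccl19, Mlana, Msln and Myl9 as it did for the atrial genes, and the part of the atrial share in these values was not tested.

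Smaller differences with small standard errors toward tissue above the tie filled the rest of the top of the list. Several of these genes were dim. Cstad, Entpd2, Calcrl, Trnp1 and Rap1b were well above background on only 2 of 3 below arrays, and Igfbp6 on 2 of 3 arrays of each piece. Over the alternatives in processing and arrays Cstad ran from -1.76 to -0.34 and Calcrl from -1.24 to -0.16, so the standard errors do not cover these choices. Cstad read 0.09, 0.25 and 0.30 above and -0.27, -0.21 and -0.23 below, at -0.45 ± 0.09, and it was the other feature that passed in the limma fit of all 24 arrays (adjusted p 0.048). With slide as a block over those arrays Cstad was at -0.38 ± 0.13 (adjusted p 1), and neither the slide block nor the replicate block over 24 arrays left any feature past the threshold. In Tg+ hearts Cstad was at 0.04 ± 0.09. Entpd2, an enzyme that splits extracellular ATP, read 0.37, 0.30 and 0.69 above and 0.08, -0.07 and -0.19 below. It did not overlap, at -0.51 ± 0.12, and was at -0.65 ± 0.12 in Tg+ hearts. Arl4a, a small GTPase, was at -0.71 ± 0.16 and at 0.16 ± 0.16 in Tg+ hearts. Calcrl, the receptor of adrenomedullin and CGRP, was at -0.42 ± 0.10. Igfbp6, which binds insulin-like growth factor 2, was at -0.43 ± 0.11. Ptprj, a receptor phosphatase, was not well above background on any below array. By the measure of means used for Mybphl it was 1.20-fold higher above, where 2 of 3 arrays measured it. Trnp1, Rap1b and Pnkd were at -0.59 ± 0.16, -0.36 ± 0.10 and -0.46 ± 0.13, and the other probes of Rap1b reached 0.02. Khdrbs3, an RNA-binding protein, and Rdm1 were separated by wide gaps at -0.56 ± 0.19 and -0.46 ± 0.16, as were Rnaseh2c and Arhgap8 at -0.31 ± 0.11 and -0.34 ± 0.13.

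Toward tissue below the tie, Xirp2 had the largest difference. It encodes a Xin protein that binds actin at the intercalated disc and Z-disc of heart muscle cells. It read 1.22, 1.26 and 1.18 above and 1.55, 2.76 and 2.27 below. The above arrays agreed closely and all below arrays lay over them, at 0.98 ± 0.29 (95% interval 0.34 to 1.61, limma unadjusted p 0.0065, adjusted 1.00), and its 3 probes ranged from 0.40 to 0.98. With slide as a block the difference was 0.92 ± 0.39, and without the weak arrays, which leaves 1 above array, it was 1.34. In Tg+ hearts it was 0.75 ± 0.29, also without overlap, against 0.09 ± 0.13 in sham hearts. Its promoter window is shown because it led this side; the capitals mark the MEF2 box, the letters bound by the MEF2 factors of muscle, which 1.69% of windows hold.
Xirp2, chr2:67445752-67446001, + strand: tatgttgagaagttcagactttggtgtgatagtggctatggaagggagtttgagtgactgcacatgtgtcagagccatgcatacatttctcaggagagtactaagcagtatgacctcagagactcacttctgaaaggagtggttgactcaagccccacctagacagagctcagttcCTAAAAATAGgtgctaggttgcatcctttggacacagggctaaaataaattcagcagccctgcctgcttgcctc
The box lay 74 to 65 bases before the start.

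Uck2, a kinase that salvages uridine and cytidine, read 1.86, 2.49 and 1.89 above and 2.40, 3.19 and 3.06 below. The groups overlapped by 1 array, at 0.81 ± 0.30, and in Tg+ hearts the difference was 0.83 ± 0.30. Xirp1, the second Xin gene, read 0.08, 0.49 and 0.32 above and 0.38, 1.41 and 0.88 below, at 0.59 ± 0.29. Rcan1, an inhibitor of calcineurin, and Flnc, filamin C, were at 0.75 ± 0.39 and 0.71 ± 0.42. Nppb, B-type natriuretic peptide, read 4.83, 3.99 and 3.68 above and 3.97, 5.40 and 4.99 below, at 0.62 ± 0.60. Ankrd1, a stretch-sensing ankyrin repeat protein, was at 0.09 ± 0.33.

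Of 22 genes of wall stress and the border zone, 19 were measured, and 16 were positive, where 45.9% of all features were. Of these, 0 passed, 2 (Xirp2 and Uck2) had an unadjusted p under 0.05 with below higher (1% of all features) and 1 did not overlap (2.47%). The median was 0.35. The mean log2 ratio over the list was 1.06, 1.39 and 1.33 above and 1.44, 1.85 and 1.43 below, so every below array lay over every above array, by a narrow margin. The median ran from 0.26 to 0.51 as each array was left out and was 0.31 with slide as a block. It was -0.04 in sham hearts and -0.01 in Tg+ hearts. The 3 negative members were Nppa, Ccn2 and Clu.

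All 18 measured heat shock and chaperone genes of 19 were higher below, where 45.9% of features were. Hspa9, the mitochondrial Hsp70, read 0.08, 0.25 and 0.53 above and 0.56, 0.75 and 0.53 below, at 0.33 ± 0.13. The groups only just stood apart, and Hspa9 was the 1 member with an unadjusted p under 0.05. Hspd1, the mitochondrial Hsp60, and Hsp90ab1, a cytosolic Hsp90, also did not overlap, at 0.38 ± 0.19 and 0.30 ± 0.14. Hspb1, the small heat shock protein Hsp27, read -0.91, 0.35 and -0.76 above and 0.54, 0.46 and -0.01 below. It overlapped through above replicate 2 and had the largest difference of the list, 0.77 ± 0.38. In all, 3 of 18 did not overlap with below higher (2.47% of features) and 0 passed. The median was 0.23, and 0.12 to 0.30 as each array was left out. Without below replicate 1, 14 of 18 were positive, and with slide as a block the median was 0.04. In sham hearts the median was -0.01 and in Tg+ hearts 0.07.

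The other genes on this side were chosen by test statistic or gap and share no list. The chaperonin subunits Tcp1 and Cct3, which fold actin and tubulin, were at 0.30 ± 0.15 and 0.31 ± 0.10, without overlap. Nsfl1c, a cofactor of the ATPase Vcp, was at 0.34 ± 0.10. Anks1, an adaptor with ankyrin and SAM repeats, had the lowest p on this side: it read -0.53, -0.44 and -0.36 above and -0.06, -0.08 and -0.02 below, at 0.39 ± 0.09 (95% interval 0.19 to 0.59). Its below arrays lay close together and well over the above arrays. In Tg+ hearts Anks1 was at -0.22 ± 0.09, and the wild-type difference minus the Tg+ difference was 0.61 ± 0.13 (limma unadjusted p 0.000605, adjusted 0.62). Pdlim1, a PDZ and LIM protein that binds alpha-actinin, read -0.70, -0.52 and -0.38 above and -0.28, -0.03 and -0.07 below, at 0.41 ± 0.11. Prdx6, a peroxiredoxin that removes lipid peroxides, was at 0.41 ± 0.13 with overlap. Becn1, which starts autophagosomes, was at 0.30 ± 0.10. Poldip2, Ap3d1, Ilrun and Ankle2 were at 0.37 ± 0.11, 0.36 ± 0.11, 0.37 ± 0.12 and 0.30 ± 0.10, each without overlap. Eif4g1, the scaffold of the cap-binding complex, Gnas, the stimulatory G protein, Camsap1, which caps microtubule minus ends, and Snrk, a kinase, had wide gaps at 0.40 ± 0.15, 0.43 ± 0.15, 0.40 ± 0.14 and 0.40 ± 0.14.

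Genes of the injury response overlapped between the pieces. Mt2, a metallothionein that binds zinc and copper, read 1.00, 3.67 and 1.74 above and 4.83, 1.36 and 1.29 below. The high arrays were below replicate 1 and above replicate 2, those with the weakest Cy5 signal, and the difference was 0.35 ± 0.99 (95% interval -1.84 to 2.54). Mt1 behaved alike, at 1.32, 3.23 and 1.41 above and 3.54, 1.36 and 1.33 below, with a difference of 0.09 ± 0.65. Pdk4, the kinase that shuts off pyruvate dehydrogenase, read 1.37, 3.72 and 1.65 above and 4.18, 1.17 and 1.10 below, at -0.09 ± 0.89. Angptl4, a secreted inhibitor of lipoprotein lipase, read -1.58, 1.39 and -0.21 above and 2.01, 0.00 and -1.18 below, at 0.41 ± 0.84. These 4 genes were highest on the same 2 weak arrays, 1 from each piece, and the part of signal strength in their values was not tested.

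S100a9, an alarmin of neutrophils, read -0.83, 0.24 and -2.64 above and 0.83, -1.72 and -1.62 below, at 0.24 ± 0.90. Fhl1, a LIM protein of the stressed sarcomere, read -1.44, 0.13 and -1.33 above and 1.69, -0.79 and -0.86 below, at 0.90 ± 0.74. Both were again highest on those 2 arrays. Timp1, an inhibitor of matrix proteases, read 0.94, 0.69 and 1.98 above and 0.50, 2.02 and 1.62 below, the opposite order, at 0.18 ± 0.57. Ccn2, a matricellular growth factor, was at -0.30 ± 0.70 and Chil3, a chitinase-like protein of myeloid cells, at -0.04 ± 0.44. In Tg+ hearts Chil3 was at 1.52 ± 0.44 with no overlap. The intervals of these genes were wide: that of Mt2 allows a factor of 2 or more in either direction.

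**Figure D4:**
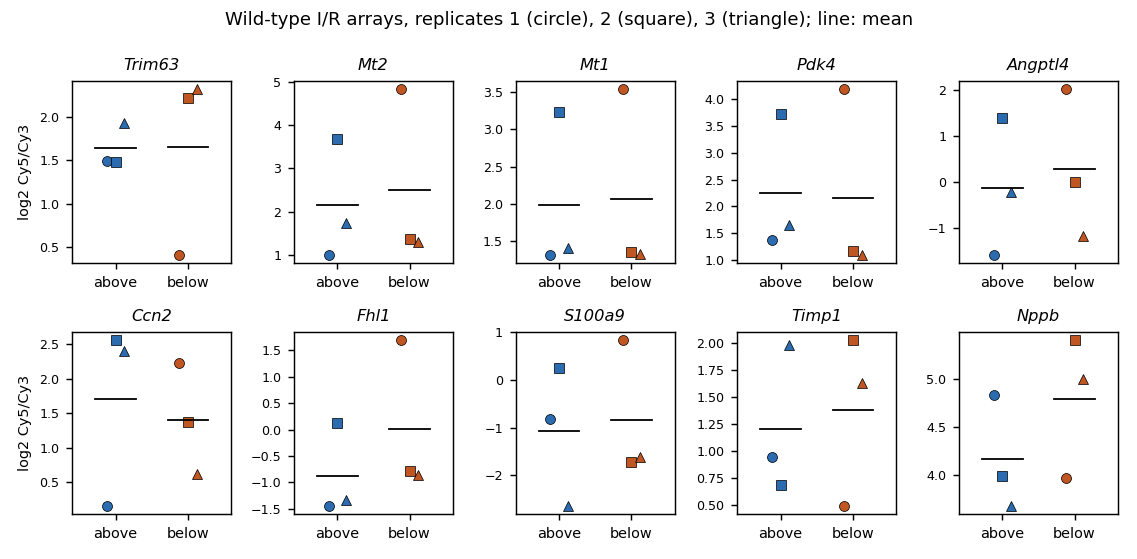
Log2 Cy5/Cy3 ratio (y axis, own scale in each panel) of Trim63 and 9 injury genes on the wild-type I/R arrays; circles, squares and triangles are replicates 1, 2 and 3 and lines are means. Mt2, Mt1, Pdk4, Angptl4, Fhl1 and S100a9 are highest on below replicate 1 (circle) and above replicate 2 (square), and all 10 genes overlap between the pieces.

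Genes of fuel use and contraction had small median differences over the 6 wild-type arrays. Of 23 measured TCA cycle and pyruvate genes, 17 were positive, where 45.9% of all features were, with a median of 0.22, and 0 passed. In 1, Bdh1 (a ketone body enzyme), at 0.53 ± 0.25, the groups did not overlap with below higher, where 2.47% of all features did so. Oxct1, which activates ketone bodies, read 1.37, 1.04 and 1.82 above and 0.91, 2.68 and 2.44 below, at 0.60 ± 0.44. In Tg+ hearts the list median was -0.52 and Oxct1 was at -1.17 ± 0.44. The wild-type difference minus the Tg+ difference for Oxct1 was 1.77 ± 0.62 (limma unadjusted p 0.0169, adjusted 0.62), so it did not pass. Fatty acid oxidation genes had a median of 0.08 over 26, respiratory chain genes 0.04 over 32 and glycolysis genes 0.08 over 17. Some of these depend on which weak arrays are kept. Without below replicate 1 the respiratory chain median was -0.36 with 25 of 32 negative, and that of fatty acid oxidation -0.04. That setting keeps the weak above replicate 2. Without all weak arrays, which leaves 1 above array, they were 0.23 with 26 of 32 positive and 0.18, so neither direction is settled. Sarcomere and Z-disc genes had a median of 0.16 over 26, with 18 positive, and the troponins Tnni3 and Tnnc1 at -0.45 ± 0.28 and -0.39 ± 0.21. With slide as a block the TCA and sarcomere medians were -0.08 and -0.07, of the other sign. No slide held both wild-type I/R pieces, so those values come through arrays of other groups and cannot settle the direction. As each of the 6 arrays was left out, the medians ran from 0.09 to 0.27 for TCA genes and from 0.07 to 0.27 for sarcomere genes. Calcium handling genes had a median of 0.07 over 18, or 0.38 without below replicate 1 and 0.14 without the weak arrays, and Sln was the lowest of them.

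The medians of the remaining lists over all 6 arrays were small, and several depend on which weak arrays are kept. Hypoxia response genes had a median of 0.07 over 20, immediate early genes -0.01 over 17, interferon response genes -0.02 over 25, ER stress and ATF4 genes -0.05 over 21, cell death genes -0.02 over 18, and ubiquitin, proteasome and atrophy genes -0.004 over 35. Inflammatory cytokine and adhesion genes were at -0.17 over 16, with Il1r1, the interleukin 1 receptor, at -0.24 ± 0.10 without overlap. Metallothionein and oxidative stress genes were at 0.07 over 20, clock genes at 0.05 over 14, glucocorticoid response genes at 0.03 over 16, ion channels at 0.02 over 18, angiogenic ligands at 0.01 over 21 and matrix remodelling genes at -0.10 over 25. Of the markers of other cells, endothelial genes had a median of 0.07 over 16, neutrophil genes 0.15 over 7, erythroid genes 0.12 over 5, adipocyte genes -0.18 over 8, neural genes -0.14 over 3, thymus and airway genes -0.09 over 3, and the 1 lymphocyte gene -0.09. Without below replicate 1 the median of matrix remodelling genes was -0.51 with 20 of 25 negative, of glucocorticoid response genes -0.30, of ion channels 0.35 with 13 of 18 positive, of adipocyte genes -0.78 with 8 of 8 negative and of erythroid genes -0.24 with 5 of 5 negative. That setting keeps the weak above replicate 2. Without all weak arrays, which leaves 1 above array, these medians were -0.31, -0.05, -0.17, -0.24 and 0.16 in the same order. Ion channels and erythroid genes thus changed direction between the settings. The ER stress and ATF4 median was -0.34 there, with 16 of 21 negative. No member of any of these lists passed in the main fit.

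**Figure D5:**
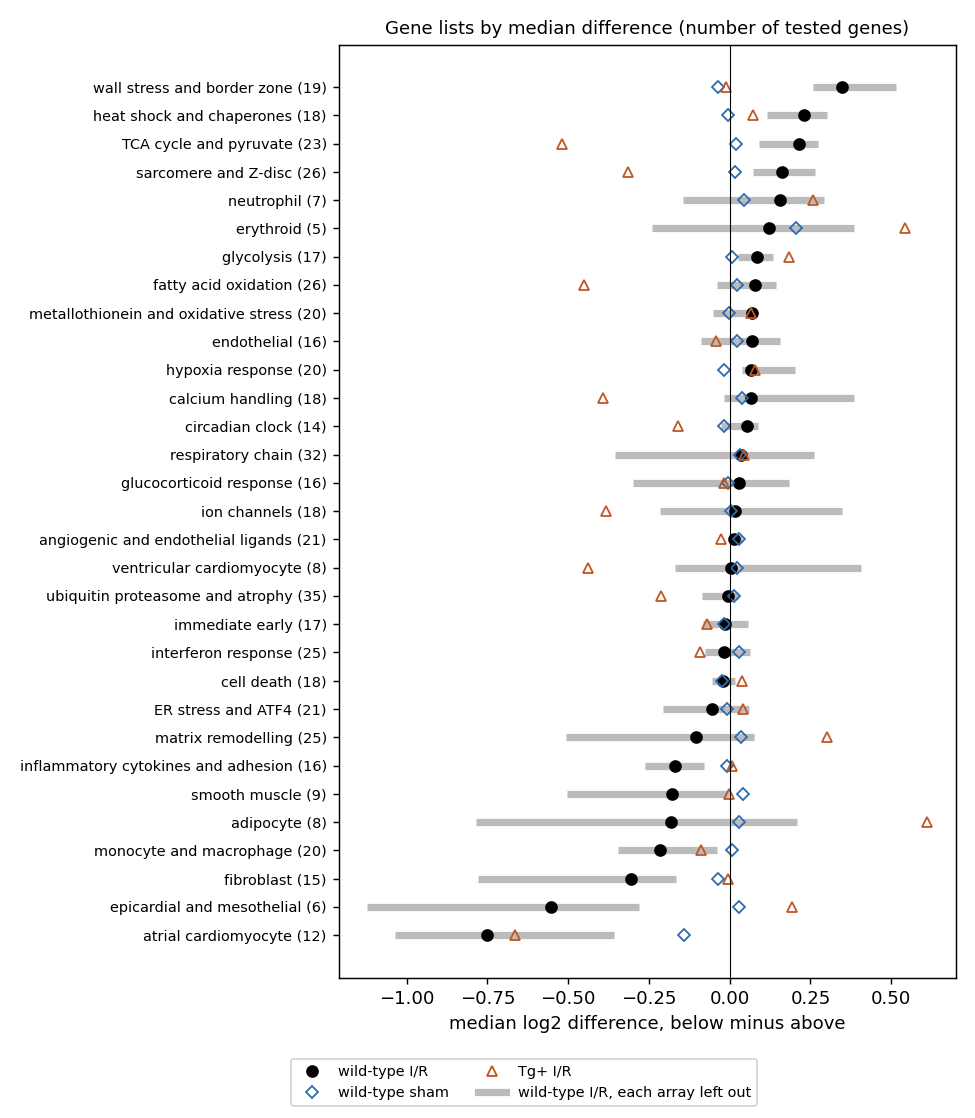
Median log2 difference below minus above (x axis) over the measured genes of each list with at least 5 of them (number in brackets); filled circles are wild-type I/R, diamonds wild-type sham, triangles Tg+ I/R, and grey bars the range of the wild-type I/R median as each of its 6 arrays was left out. Atrial genes lie lowest at -0.75 and wall stress genes highest at 0.35, and many grey bars, such as those of the respiratory chain, adipocyte and matrix remodelling lists, cross 0.

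The difference between pieces was set beside that of sham and of Tg+ hearts. In wild-type sham hearts 0 of 11386 features passed in limma, 103 (0.905%) had an unadjusted p under 0.05, and the below arrays lay all over or all under the above arrays for 243 (2.13%) and 228 (2%). Mpst, Osbpl8 and AK041861 had the smallest p at 0.31 ± 0.08, 0.23 ± 0.06 and -0.21 ± 0.06. After I/R these 3 were at 0.03 ± 0.14, 0.10 ± 0.11 and -0.09 ± 0.13. In Tg+ I/R hearts 0 passed and 1031 (9.05%) had an unadjusted p under 0.05. With the replicate number as a block over 24 arrays 107 features passed in Tg+ hearts, 56 higher below and 51 higher above, and 0 in wild-type hearts. The smallest p in Tg+ hearts were those of Gpatch4, a nucleolar protein, Neat1, the long RNA of paraspeckles, and Rras2, a small GTPase, at 0.81 ± 0.11, 2.06 ± 0.29 and 1.15 ± 0.19. In wild-type hearts the same genes were at 0.26 ± 0.11, 0.54 ± 0.29 and 0.56 ± 0.19, each with below arrays over all above arrays.

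Tests of these differences found no feature either. The I/R difference minus the sham difference passed for 0 of 11386 features and had an unadjusted p under 0.05 for 206 (1.81%), led by Arl4a at -0.72 ± 0.18, Igfbp6 at -0.46 ± 0.13 and Mgp at -1.21 ± 0.34 (each adjusted p 1 in limma). The wild-type difference minus the Tg+ difference passed for 0 and had an unadjusted p under 0.05 for 719 (6.31%). Anks1, Ndufa6 and Ino80e had its smallest p. Ndufa6, a subunit of respiratory complex I, was at 0.21 ± 0.13 in wild-type and -0.59 ± 0.13 in Tg+ hearts, and Ino80e, a subunit of a chromatin remodeller, at -0.16 ± 0.09 and 0.40 ± 0.09.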

How the data were processed

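RNA of 24 heart pieces was read on two-colour Agilent arrays. The deposited scanner files hold spot intensities and log10 ratios made with Feature Extraction 9.5.3.1, per the file headers. The authors' deposited value table holds log2 ratios whose scale and direction followed the scanner ratios (lowest correlation 0.99); its array medians ran from -0.11 to 0.14 and its centring is not stated. Cy5 held the heart RNA per the labels' dye fields, and no dyes were swapped; the labelling text names Cy3-CTP, but ventricular muscle genes were brighter in Cy5 on these 6 arrays. Here the mean and background intensity of both channels was corrected with normexp (offset 50) and loess within arrays in limma 3.58.1 (R 4.3.3), control and outlier-flagged spots carrying no weight. Spots of a probe were averaged. Of 41174 probes, 15356 were kept: Cy5 well above background on every array of at least 1 of 8 groups, with no missing value. The brightest probe stood for a gene, which gave 11386 features. Names came from RefSeq by accession (22951 probes), current symbol (6659) or older symbol (3105), and 8459 kept the array's name. The limma fit of the 12 I/R arrays gave the main result, the 12 sham arrays the sham difference and all 24 the I/R minus sham difference, each with Benjamini-Hochberg adjustment at 0.05. Scripts were tested on simulated data.

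The members, gene lists and tests were chosen with earlier results of these data known. Genes were named by a rule: Trim63, the 12 highest and 12 lowest moderated t where under 20 features passed, the 8 widest gaps each way, 3 genes of smallest p in each list and other contrast, and 12 injury genes. Mybphl, Mlana, Ccl19, Stard10, Dkk3, Dcn, Col1a1, Col1a2, Cd68, Lyz2, Cd163, Rcan1, Flnc, Clu, Hspd1 and Tnni3 were named outside it after their values were seen. One gene that met the rule is not reported here. Slides and scans (7 of each) coincided, and no slide held both wild-type I/R pieces, so no within-slide value exists. Alternatives were other background corrections and scalings, no filter on dim probes, the mean of probes, other sets of arrays, replicate and slide blocks, array weights and leaving out arrays. Leaving out weak arrays and a covariate for Cy5 share were added after seeing the data. Same-numbered above and below arrays deviated together in all 3 Tg+ I/R pairs (correlations 0.49, 0.13 and 0.54) and all 3 Tg+ sham pairs (0.44, 0.40 and 0.14), but not in all wild-type pairs, so the blocked count stands beside the Tg+ result.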

Additional observations from a re-analysis of the deposited data

How the results depend on the processing

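The wild-type I/R count of 0 features past the limma threshold stayed at 0 with no background correction, Agilent's log ratio, the deposited value table, Cy5 alone, no filter on dim probes, the mean of probes, only the 6 arrays, and slide as a fixed or random block. With all 24 arrays 2 features passed, both named, and 0 members of gene lists. With array weights 3926 passed (1628 higher below, 2298 higher above), 98 of the named features and 177 list members among them; those weights ran from 0.123 on below replicate 1 to 4.95 on above replicate 1. Leaving out 1 array gave 0 to 1 for features, named features and list members alike, the 1 being Myl7 without above replicate 2; without below replicate 1, 0 passed but 2279 had an unadjusted p under 0.05. Without the weak arrays, an alternative chosen after seeing the data, 139 features passed on the I/R arrays (25 named, 29 in lists) and 537 with the sham arrays in the fit (40 named, 61 in lists), with above at 1 array; with the Cy5 share as a covariate 0 passed. The cause of these shifts was not tested. With the replicate number as a block 0 passed, with 260, 51 and 823 features at an unadjusted p under 0.05 in fits of 12, 6 and 24 arrays; the deviations of same-numbered wild-type I/R arrays correlated at -0.27, -0.73 and 0.53, so their numbers were not taken as pairs. The Tg+ count of 0 was 107 with that replicate block over 24 arrays, 3 with slide as a block and 0 to 2 with 1 array left out (2 without Tg+ below replicate 1). The I/R minus sham count was 0 to 2 with 1 array left out (2 without wild-type below replicate 1), and the sham and wild-type minus Tg+ counts were 0 throughout. Acta2 reversed to -0.035 with the mean of its probes. Of 3473 gene values under alternatives 146 changed sign, and of 782 list medians 124 did. A typical unadjusted 95% interval of 0.34 to either side, and weak Cy5 signal on 3 of 6 arrays, limit what could be seen. The adjusted threshold asks for larger differences still.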
